A study of Mus musculus with 18 samples.

Results

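Triglyceride is built in adipocytes from glycerol-3-phosphate and fatty acyl-CoA. The 10 genes described here encode enzymes of this route and were chosen by name: Gpam, Agpat1, Agpat2, Agpat3, Lpin1, Lpin2, Lpin3, Dgat1, Dgat2 and Mogat1. They are 10 of the 52093 gene symbols in the deposited files, each has 1 row there, and the rule that chose them uses no measured value. Their mRNA was measured by RNA-seq in 3 fat depots, with 6 samples each: mature adipocytes isolated from inguinal white adipose tissue (iWAT), mature adipocytes isolated from epididymal white adipose tissue (eWAT), and whole brown adipose tissue (BAT).

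All 18 samples came from wild type male mice of the C57BL/6 strain kept on a high-fat diet (HFD). The labels give 12 weeks of HFD, and the notes of the study give an age of 16 weeks. The extraction text of the labels names C57BL/6J mice, and the notes of the study name C57BL/6NTac mice. A treatment field of the labels gives regular chow for every sample, against the sample titles, which give HFD. White adipocytes were freed with collagenase and collected as the floating layer, whereas BAT was frozen whole. The labels call BAT both a tissue and adipocytes. The cell fraction and the depot therefore cannot be told apart in comparisons with BAT.

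Triglyceride synthesis proceeds by stepwise acylation. Glycerol-3-phosphate acyltransferases such as Gpam add the first acyl chain and AGPAT enzymes the next, giving phosphatidate. Lipins remove the phosphate to give diacylglycerol, and DGAT enzymes add the last acyl chain. Mogat1 provides another route to diacylglycerol, from monoacylglycerol. In adipose tissue this pathway fills the lipid droplet, and inherited loss of AGPAT2 causes a generalised lack of fat in humans.

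Reads counted on transcript rows numbered 24655056 to 42518483 per sample (median 29536432). All BAT libraries were run in lanes 3 and 4 and all libraries of white adipocytes in lanes 1 and 2, so a lane effect and a BAT effect cannot be told apart. All 5 adipocyte markers had more than 3 reads in every sample of each depot, and the 4 brown adipocyte markers summed to 1995 to 2631 RPKM in BAT against at most 12.1 RPKM in the white depots (RPKM scales the reads of a gene by its transcript length and by the total of the library). The 5 macrophage markers summed to 444 to 876 RPKM in iWAT adipocytes, 2518 to 4051 RPKM in eWAT adipocytes and 24.2 to 47.9 RPKM in BAT. Macrophage mRNAs were thus present in the isolated white adipocytes. The 4 endothelial markers summed to 87.8 to 251 RPKM in iWAT adipocytes, 30.8 to 65.8 RPKM in eWAT adipocytes and 54.2 to 79.1 RPKM in BAT. The 4 skeletal muscle markers ranged from 1.47 to 98.6 RPKM among BAT samples. The eWAT samples numbered 1 and 3 stood apart from the other 4: Adipoq, an adipocyte hormone, was at 199 and 149.9 RPKM there against 396 to 579 RPKM, and the macrophage sum was at 4051 and 3983 RPKM against 2518 to 2758 RPKM. Tests that involve eWAT are therefore also given without these samples, whereas levels and ranges cover all 6.

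Dgat2, which catalyses the last acylation, had the highest RPKM of the 10 genes in all 3 depots. On the RPKM scale, which is a level per length of transcript, it was highest in iWAT adipocytes at 944 ± 159, followed by BAT at 548 ± 75.9 and eWAT adipocytes at 364 ± 165 (mean ± SD, n = 6 samples here and below). Without eWAT samples 1 and 3 the eWAT level was 466 ± 63.1 RPKM (n = 4). It ranked 30 in iWAT adipocytes, 49 in BAT and 97 in eWAT adipocytes by mean RPKM among all 52093 symbols. It made up 81.6 ± 0.866% of the summed RPKM of the 10 genes in iWAT adipocytes, 58.7 ± 3.27% in BAT and 74.6 ± 5.55% in eWAT adipocytes. Agpat2 came next in every depot, and the ranges of Dgat2 and Agpat2 did not overlap in any of them. The mean RPKM of Dgat2 was 9.19 times that of Agpat2 in iWAT adipocytes and 9.54 times in eWAT adipocytes, but 2.95 times in BAT. These ratios and percentages depend on the row lengths. The Agpat2 row, at 3662 bases, is 2.46 times as long as the longest GENCODE coding transcript of the gene. For Dgat2 these lengths are 2262 and 2251 bases. GENCODE lengths would thus lower the ratios, and whether Dgat2 would stay above Agpat2 in BAT was not tested.

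The order below these leading genes differed by depot. In iWAT adipocytes, Dgat1 (30.0 ± 4.39 RPKM) and Lpin1 (28.8 ± 4.47 RPKM) followed with overlapping ranges, and Agpat1, Agpat3 and Gpam came after them, neighbours in this order again overlapping. In eWAT adipocytes, neighbours from Agpat2 down to Mogat1 overlapped in range. Within samples, Agpat3 lay above Gpam in all 6, while the other neighbours kept their order in only 3 to 5 of the 6. In BAT, Lpin1 (53.1 ± 7.42 RPKM), Agpat3 (48.4 ± 6.35 RPKM), Gpam (38.2 ± 9.28 RPKM) and Dgat1 (32.3 ± 5.05 RPKM) followed, and each overlapped its neighbour. The lowest genes were Lpin2 in iWAT adipocytes (1.23 ± 0.176 RPKM) and BAT (0.797 ± 0.136 RPKM), and Lpin3 in eWAT adipocytes (0.581 ± 0.176 RPKM). The level of Lpin2 per length depends on its row, which at 21798 bases is 3.86 times as long as the longest GENCODE coding transcript of the gene.

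**Figure D1:**
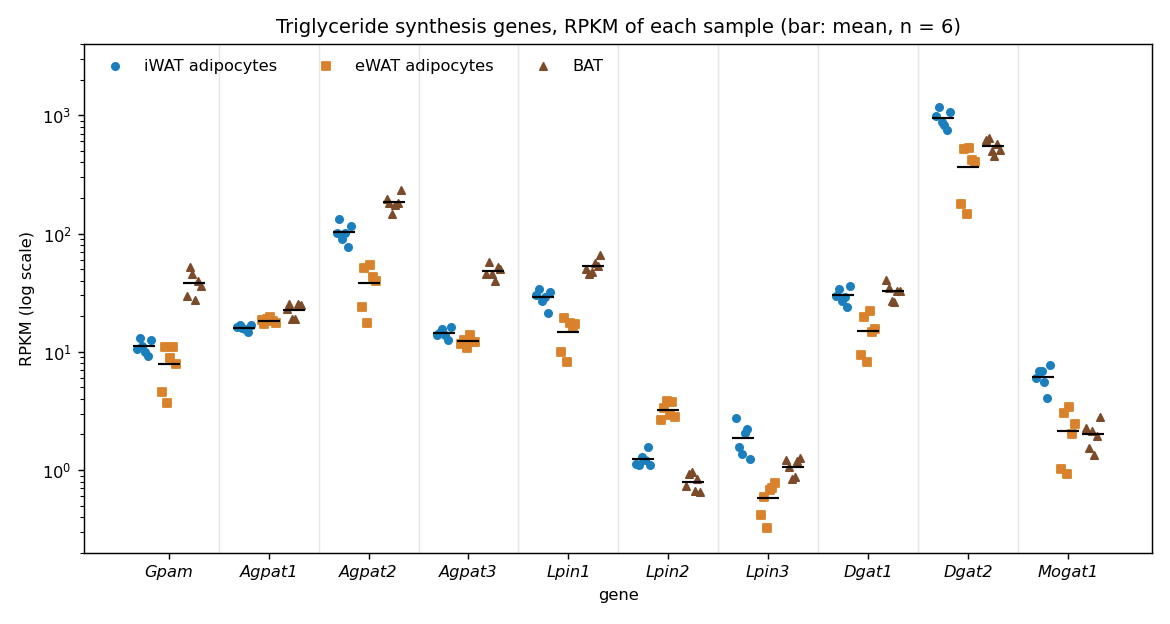
RPKM of the 10 genes in each sample on a log axis, by depot (circles iWAT adipocytes, squares eWAT adipocytes, triangles BAT), with a bar at the mean of 6 samples. Dgat2 lies above every other gene in each depot, and the eWAT samples of Gpam, Agpat2, Lpin1, Dgat1, Dgat2 and Mogat1 split into 2 low and 4 higher points.

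To ask how the white depots differ, counts of iWAT and eWAT adipocytes were compared with edgeR (TMM scaling, which aligns the typical gene of the libraries, and an adjusted p threshold of 0.05 over 19623 genes). Of the 10 genes, 9 differed, 7 higher in iWAT adipocytes and 2 (Agpat1 and Lpin2) higher in eWAT adipocytes. Differences were common between these depots: 68.6% of all genes tested differed, 34.1% higher in iWAT and 34.5% higher in eWAT adipocytes. The median log2 fold change was 0.997 over the 10 genes and 0.00 over all genes. The RPKM ranges of 8 of the 10 genes did not overlap, against 44.0% of all genes. The 5 adipocyte markers were all higher in iWAT adipocytes (median log2 fold change 1.38) and the 5 macrophage markers all lower (median −2.20). The 4 endothelial markers were also all higher in iWAT adipocytes (median 1.62), and the 3 progenitor and fibroblast markers were not called. Without eWAT samples 1 and 3, 6 of the 10 genes were higher in iWAT and 2 in eWAT adipocytes (29.6% and 30.6% of all genes were), with a median of 0.72. The medians of the adipocyte and macrophage markers were then 1.10 and −2.05. In such bulk samples fewer adipocytes and less of an mRNA per adipocyte cannot be told apart, and the part of these cell types in the differences was not tested.

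At the first step, Gpam (chr19:55141758-55201824 in mm9), the mitochondrial glycerol-3-phosphate acyltransferase, spanned 9.16 to 13.1 RPKM in iWAT adipocytes (median 10.95) and 3.71 to 11.1 RPKM in eWAT adipocytes (median 8.36). The ranges overlapped: 4 of the eWAT samples lay at 7.91 RPKM or more, and samples 1 and 3 at 4.61 and 3.71 RPKM. The difference did not pass the test (log2 fold change 0.51 ± 0.25 SE, adjusted p = 0.08), and without these 2 samples it was 0.20 (adjusted p = 0.23).

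Among the acyltransferases of the second step, Agpat2 (chr2:26447991-26459937) showed the largest difference. Its RPKM was 76.7 to 132 in iWAT adipocytes (median 101), whereas the eWAT samples ran from 17.6 to 54.3 (median 41.0). Every iWAT sample lay above every eWAT sample, and Agpat2 was 2.71-fold higher in iWAT adipocytes (log2 fold change 1.44 ± 0.26, adjusted p = 0.00028). Without eWAT samples 1 and 3 the log2 fold change was 1.13 (adjusted p = 0.00011). Agpat2 shares 64 exon bases with Egfl7 on the other strand, which had 206 to 1915 reads per sample, and whether the counting used strand is not given in the sources used here.

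Its paralogs differed less. Agpat1 (chr17:34742806-34750728), a lysophosphatidate acyltransferase of wide expression, was at 14.7 to 16.7 RPKM in iWAT adipocytes (median 16.1) and 17.1 to 19.7 RPKM in eWAT adipocytes (median 18.4). These ranges were close but did not overlap, and Agpat1 was lower in iWAT adipocytes (log2 fold change −0.19 ± 0.06, adjusted p = 0.014, and −0.19, adjusted p = 0.037, without eWAT samples 1 and 3). This call was lost when genes were filtered only at 1 read (−0.17, adjusted p = 0.089). Agpat3 (chr10:77731923-77815234), which also acylates lysophospholipids, was at 12.6 to 16.2 RPKM (median 14.2) and 10.8 to 13.8 RPKM (median 12.2), with overlapping ranges. It was higher in iWAT adipocytes (log2 fold change 0.25 ± 0.09, adjusted p = 0.02), a call that was lost without eWAT samples 1 and 3 (0.18, adjusted p = 0.1) and without TMM scaling (0.17, adjusted p = 0.053).

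The lipins, phosphatidate phosphatases, went in opposite directions. Lpin1 (chr12:16542475-16617772), the gene mutated in mice with fatty liver dystrophy, was at 21.2 to 34.0 RPKM in iWAT adipocytes (median 29.6) and 8.15 to 19.5 RPKM in eWAT adipocytes (median 16.6). The ranges did not overlap, and Lpin1 was 1.97-fold higher in iWAT adipocytes (log2 fold change 0.98 ± 0.21, adjusted p = 0.00098). Without eWAT samples 1 and 3 its log2 fold change was 0.71 (adjusted p = 0.00063). Lpin2 (chr17:71531900-71599158), the main lipin of liver, was at 1.10 to 1.56 RPKM in iWAT adipocytes (median 1.17) and 2.65 to 3.86 RPKM in eWAT adipocytes (median 3.14). Every eWAT sample lay above every iWAT sample, and the difference was 2.61-fold in favour of eWAT adipocytes (log2 fold change −1.38 ± 0.11, adjusted p = 4.3e-07). It was as large without eWAT samples 1 and 3 (−1.39, adjusted p = 1e-06). The macrophage markers lay on the same side, higher in each eWAT sample than in any iWAT sample, and their part in the Lpin2 difference was not tested.

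Lpin3 (chr2:160706406-160731743), the least studied lipin, was at 1.24 to 2.73 RPKM in iWAT adipocytes (median 1.81) and 0.322 to 0.772 RPKM in eWAT adipocytes (median 0.635). The ranges were apart, though at the lowest depth of the 10 genes, with 149 to 312 and 37 to 100 reads per sample. Lpin3 had the largest log2 fold change of the 10 in this comparison (1.68 ± 0.23, adjusted p = 3.5e-05), and 1.43 without eWAT samples 1 and 3 (adjusted p = 0.0001).

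At the last step both DGAT genes were higher in iWAT adipocytes. Dgat2 (chr7:106302168-106331227) was at 746 to 1170.2 RPKM in iWAT adipocytes (median 929) and 145.6 to 526 RPKM in eWAT adipocytes (median 412). The eWAT samples 1 and 3 were lowest, at 176.9 and 145.6 RPKM, but the other 4, at 402 to 526 RPKM, also lay below every iWAT sample. The difference was 2.61-fold (log2 fold change 1.38 ± 0.30, adjusted p = 0.0012), and 1.02 on the log2 scale without these 2 samples (adjusted p = 0.00016). Dgat1 (chr15:76332445-76342381), which is unrelated to Dgat2 in sequence, was at 24.1 to 35.9 RPKM (median 29.5) and 8.23 to 21.98 RPKM (median 15.2). Its ranges did not overlap either, and it was 2.02-fold higher in iWAT adipocytes (log2 fold change 1.01 ± 0.22, adjusted p = 0.0013), or 0.73 on the log2 scale without these samples (adjusted p = 0.0011).

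Mogat1 (chr1:78507566-78534748), a monoacylglycerol acyltransferase, was at 4.08 to 7.74 RPKM in iWAT adipocytes (median 6.39) and 0.929 to 3.39 RPKM in eWAT adipocytes (median 2.24). The ranges did not overlap, and Mogat1 was 2.92-fold higher in iWAT adipocytes (log2 fold change 1.54 ± 0.30, adjusted p = 0.0005). Leaving out eWAT samples 1 and 3 gave 1.18 (adjusted p = 0.00034). Its counts were small, at 192 to 376 and 43 to 161 reads. They are also uncertain, since its exons share 108 bases with BC035947 on the other strand, which had 59 to 136 and 13 to 46 reads.

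Promoter sequences are shown for 3 genes that were higher in iWAT adipocytes (Agpat2, Lpin1 and Mogat1) and for Lpin2, which was higher in eWAT adipocytes. They are the 250 bases before the first listed transcript start, 5′ to 3′ on the strand of the gene, from the RefSeq promoter table of the GRCm38.p6 build, which is not the build of the deposited files. Of the 10 genes, 8 matched this table with 13 windows, and Dgat1 and Dgat2 did not match. Capitals mark matches, on either strand, to the nuclear receptor half-site AGGTCA or to a C/EBP motif spelled TTGCNNCAA. They also mark the E-box, whose letters are CACGTG, and the promoter element known as the CCAAT box. The GC box was searched as the run of letters GGGCGG.
Agpat2 (chr2:26604418-26604667, minus strand): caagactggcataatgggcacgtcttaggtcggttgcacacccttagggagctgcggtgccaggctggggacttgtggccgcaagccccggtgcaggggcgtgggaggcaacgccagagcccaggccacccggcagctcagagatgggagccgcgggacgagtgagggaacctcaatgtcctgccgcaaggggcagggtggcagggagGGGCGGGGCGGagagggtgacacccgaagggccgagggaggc
Lpin1 (chr12:16610967-16611216, minus strand): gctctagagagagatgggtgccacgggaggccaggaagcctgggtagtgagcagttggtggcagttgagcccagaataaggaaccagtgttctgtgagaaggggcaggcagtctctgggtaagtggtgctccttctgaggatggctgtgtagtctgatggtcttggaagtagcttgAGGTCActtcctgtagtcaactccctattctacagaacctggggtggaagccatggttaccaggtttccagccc
Mogat1 (chr1:78510810-78511059, plus strand): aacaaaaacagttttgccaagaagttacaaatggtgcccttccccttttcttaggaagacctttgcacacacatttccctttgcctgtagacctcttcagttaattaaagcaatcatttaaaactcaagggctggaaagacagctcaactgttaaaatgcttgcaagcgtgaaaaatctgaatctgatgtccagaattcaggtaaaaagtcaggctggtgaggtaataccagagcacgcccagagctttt
Lpin2 (chr17:71183282-71183531, plus strand): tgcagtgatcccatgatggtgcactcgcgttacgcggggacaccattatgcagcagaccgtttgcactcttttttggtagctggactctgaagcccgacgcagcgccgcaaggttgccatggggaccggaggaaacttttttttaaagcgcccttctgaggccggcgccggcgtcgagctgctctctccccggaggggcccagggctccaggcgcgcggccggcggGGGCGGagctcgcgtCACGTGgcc

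These windows held different letters. The Agpat2 window had 2 overlapping GC boxes, the Lpin1 window 1 half-site, the Lpin2 window 1 GC box and 1 E-box, and the Mogat1 window none of the 5 motifs. In GC content they ran from 41.2% for Mogat1 and 54.8% for Lpin1 to 65.2% for Lpin2 and 69.2% for Agpat2. Among all 32851 windows of the same length, 14.02% held the half-site, 6.02% the E-box, 33.8% CCAAT, 32.7% the GC box and 1.74% the C/EBP motif. Of the 13 windows of the 8 genes, 3 held the half-site, 1 the E-box, 3 CCAAT and 7 the GC box. A match is a run of letters and was not shown here to be bound.

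**Figure D2:**
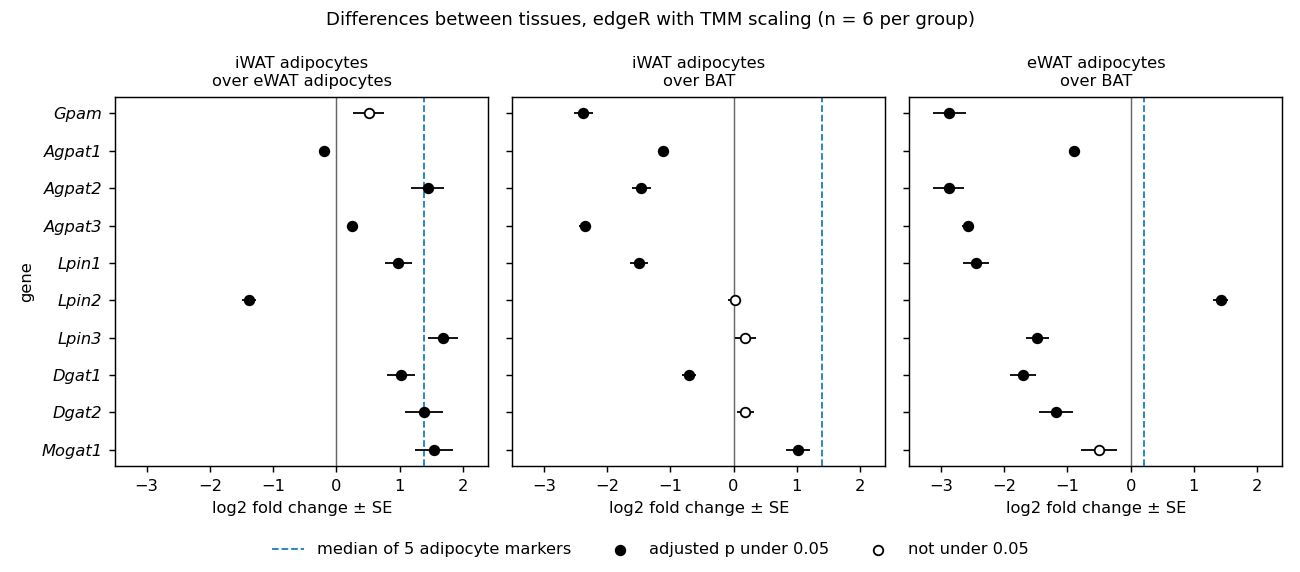
Log2 fold changes (points) with their SE (bars) for the 10 genes in the 3 comparisons, with filled points where the adjusted p was under 0.05 and a dashed line at the median of 5 adipocyte markers. In iWAT over eWAT adipocytes, Agpat2, Lpin3, Dgat2 and Mogat1 lie at or to the right of the dashed line at 1.38, and Lpin2 lies at −1.38. Against BAT, with TMM scaling, most of the 10 genes lie to the left of 0.

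Comparisons with BAT depend on how libraries are scaled. RPKM is relative to 1 total per sample, which was not the number of reads counted on transcript rows. This total was below the counted reads in every BAT sample and above them in every sample of white adipocytes. It was 22935346 against 27402247 counted reads in BAT sample 16, and 29580381 against 28354340 in iWAT sample 1. Mean TMM factors were 1.35 in iWAT adipocytes and 0.745 in BAT, and 1.37 in eWAT adipocytes and 0.732 in BAT. Without TMM scaling, all genes had a median log2 fold change of 0.87 for iWAT adipocytes over BAT and 0.89 for eWAT adipocytes over BAT, so that the fold changes below are relative to the typical gene. With TMM scaling, 7529 genes were called higher in iWAT adipocytes and 7336 higher in BAT, against 13701 and 3054 without it. For eWAT adipocytes these numbers were 8243 and 8318 with and 12962 and 4066 without it.

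Between iWAT adipocytes and BAT, 7 of the 10 genes differed, where 75.3% of all 19745 genes tested did. Of these 7, 6 were higher in BAT (Gpam, Agpat1, Agpat2, Agpat3, Lpin1 and Dgat1; 37.2% of all genes were) and Mogat1 was higher in iWAT adipocytes (38.1% of all genes were). This split depends on the scaling: without TMM, 4 of the 10 were higher in iWAT adipocytes (Lpin2, Lpin3, Dgat2 and Mogat1) and 5 in BAT, where 69.4% and 15.5% of all genes were. Limma on log2(RPKM + 0.1), which uses the RPKM totals and no TMM, also gave 4 and 5. Of all 21613 genes tested there, 12752 and 4402 were called, and the typical gene lay at 0.54 rather than 0.87. In the count fit without TMM, Dgat1 changed sign and was not called (0.14, adjusted p = 0.32). With limma it kept its sign (−0.11) and was not called either. The RPKM ranges of 8 of the 10 genes did not overlap, against 65.3% of all genes. The median log2 fold change was −0.91 over the 10 genes and 0.01 over all genes. The 5 adipocyte markers had a median of 1.40, and 4 of them were higher in iWAT adipocytes.

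Gpam and Agpat3, of the early steps, had the largest of these differences. Gpam was at 27.2 to 51.7 RPKM in BAT (median 37.7), above all iWAT samples, and was 5.18-fold higher there (log2 fold change −2.37 ± 0.15, adjusted p = 9.6e-10). Agpat3 was at 39.3 to 57.6 RPKM in BAT (median 47.9), again above all iWAT samples, and was 5.08-fold higher (−2.34 ± 0.10, adjusted p = 8.8e-12). In RPKM their BAT means were 38.2 and 48.4 against 11.1 ± 1.52 and 14.4 ± 1.28 in iWAT adipocytes.

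Agpat2 was at 147 to 235 RPKM in BAT (median 181) and also lay above every iWAT sample (log2 fold change −1.46 ± 0.15, adjusted p = 2.5e-07). Lpin1 was at 45.9 to 66.1 RPKM in BAT (median 51.7), without overlap with iWAT adipocytes (−1.49 ± 0.14, adjusted p = 1.3e-07). Lpin1 is also known from skeletal muscle. The 4 muscle markers summed to 4.22 to 16.7 RPKM in iWAT adipocytes. In BAT, sample 2 had the lowest sum (1.47 RPKM) and the lowest Lpin1 (45.9 RPKM). BAT sample 5 had the highest sum (98.6 RPKM) and the next lowest Lpin1 (47.1 RPKM). The highest Lpin1 in BAT (66.1 RPKM) was in sample 18, at a sum of 56.6 RPKM. The part of muscle in the Lpin1 difference was not tested. Agpat1 was at 18.8 to 25.2 RPKM in BAT (median 23.9), above all iWAT samples (−1.11 ± 0.08, adjusted p = 2.4e-09).

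Of the DGAT genes, Dgat1 was called higher in BAT and Dgat2 was not called. Dgat1 was at 26.5 to 40.1 RPKM in BAT (median 32.9) and overlapped iWAT adipocytes in RPKM, while its scaled log2 fold change was −0.71 ± 0.11 (adjusted p = 3.6e-05). Dgat2 was at 449.6 to 648 RPKM in BAT (median 539.7), below every iWAT sample in RPKM, yet its scaled log2 fold change was 0.19 ± 0.13 and did not pass the test (adjusted p = 0.19). Without scaling it was 1.03 (adjusted p = 2.1e-06), so the call for Dgat2 rests on the scaling.

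Lpin2 and Lpin3 did not pass the test either, with log2 fold changes of 0.02 ± 0.11 (adjusted p = 0.89) and 0.18 ± 0.16 (adjusted p = 0.32). Without scaling both were higher in iWAT adipocytes (0.88, adjusted p = 7.4e-06, and 1.04, adjusted p = 7.5e-05), and the sign of Lpin2 also changed when single samples were left out. Mogat1 was at 1.34 to 2.80 RPKM in BAT (median 2.03), below every iWAT sample, and was 2.03-fold higher in iWAT adipocytes (log2 fold change 1.02 ± 0.18, adjusted p = 0.00012).

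Between eWAT adipocytes and BAT, 9 of the 10 genes differed, where 82.5% of all 20076 genes tested did. Of these, 8 were higher in BAT (41.4% of all genes were) and Lpin2 was higher in eWAT adipocytes (41.1% of all genes were). Without TMM scaling 6 were higher in BAT and 1 in eWAT adipocytes, where 20.3% and 64.6% of all genes were. The RPKM ranges of 7 of the 10 genes did not overlap, against 68.4% of all genes. The median log2 fold change was −1.59 over the 10 genes and −0.02 over all genes. This comparison uses the same BAT samples as the one with iWAT adipocytes, and the same eWAT samples as the comparison of the white depots.

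Agpat2 (log2 fold change −2.88 ± 0.25, adjusted p = 2.9e-08), Gpam (−2.87 ± 0.26, adjusted p = 6e-08), Agpat3 (−2.57 ± 0.09, adjusted p = 9.6e-13) and Lpin1 (−2.45 ± 0.21, adjusted p = 2.4e-08) were 5.47-fold to 7.34-fold lower in eWAT adipocytes, with no overlap in RPKM. Dgat1 (−1.70 ± 0.20, adjusted p = 1.3e-06) and Lpin3 (−1.47 ± 0.19, adjusted p = 2.7e-06) were lower by less, also without overlap. Dgat2 (−1.18 ± 0.27, adjusted p = 0.00091) and Agpat1 (−0.89 ± 0.07, adjusted p = 1.1e-08) were lower in the scaled comparison while their RPKM ranges overlapped. Without eWAT samples 1 and 3, 9 of the 10 genes also differed. Of these, 8 were higher in BAT and 1 in eWAT adipocytes, where 40.8% and 40.0% of all genes were. The log2 fold changes were then −2.56 for Agpat2 (adjusted p = 5.7e-10), −2.54 for Gpam (adjusted p = 4.5e-09), −2.50 for Agpat3 (adjusted p = 8.3e-12) and −2.18 for Lpin1 (adjusted p = 2.2e-09). They were −1.42 for Dgat1 (adjusted p = 6.3e-08), −1.21 for Lpin3 (adjusted p = 1e-06), −0.89 for Agpat1 (adjusted p = 1.4e-07) and −0.80 for Dgat2 (adjusted p = 1.2e-05). Without scaling Dgat2 was not called (−0.27, adjusted p = 0.34), and Agpat1 changed sign and was not called (0.01, adjusted p = 0.9).

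Lpin2 was the exception, at 0.648 to 0.971 RPKM in BAT (median 0.786) and 2.69-fold higher in eWAT adipocytes (log2 fold change 1.43 ± 0.12, adjusted p = 2.7e-08, and 1.44, adjusted p = 4.4e-08, without eWAT samples 1 and 3). No BAT sample reached the lowest eWAT sample. Macrophage marker sums differed in the same direction, and their part in this was not tested. Mogat1 did not pass the test (−0.50 ± 0.29, adjusted p = 0.12, and −0.13, adjusted p = 0.54, without these samples), and its sign changed without scaling (0.40, adjusted p = 0.2).

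To describe which paralog held most of the mRNA, the share of 1 gene in the summed RPKM of its family was compared. A share does not depend on library scaling, and it does not measure protein or activity. It covers the mRNA of all cells in a sample, and the part of macrophages and other cell types in the shares was not tested. The AGPAT family here was Agpat1, Agpat2 and Agpat3, without Agpat4 and Agpat5. Dgat2 made up nearly all DGAT mRNA: 96.9 ± 0.222% in iWAT adipocytes, 94.4 ± 0.451% in BAT and 95.8 ± 0.808% in eWAT adipocytes. Differences between depots were small, at 1.12 percentage points for iWAT over eWAT adipocytes (adjusted p = 0.00557), 2.48 for iWAT adipocytes over BAT (adjusted p = 0.00325) and 1.37 for eWAT adipocytes over BAT (adjusted p = 0.0122; exact permutation tests, two-sided, adjusted over 9 share comparisons).

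The lipin and AGPAT families shifted more. Lpin1 made up 90.0 ± 3.08% of lipin mRNA in iWAT adipocytes, 96.5 ± 0.581% in BAT and 78.3 ± 6.56% in eWAT adipocytes, and no depot overlapped another (adjusted p = 0.00325 for each pair, exact permutation test). The raw p of these tests, 0.00216, was the smallest that 6 against 6 samples allow. Agpat2 made up 76.8 ± 2.65% of the mRNA of Agpat1, Agpat2 and Agpat3 in iWAT adipocytes, 72.2 ± 3.11% in BAT and 53.6 ± 10.5% in eWAT adipocytes. Both comparisons with eWAT adipocytes gave an adjusted p of 0.00325, and iWAT adipocytes against BAT one of 0.0238 (exact permutation tests).

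The lowest Agpat2 shares, 44.0% and 37.4%, were those of eWAT samples 1 and 3. Without them the share was still 16.8 percentage points lower in eWAT than in iWAT adipocytes (adjusted p = 0.00612, exact permutation test). The Lpin1 share was then 8.24 points lower (adjusted p = 0.0122) and the Dgat2 share 0.612 points lower (adjusted p = 0.0161, exact permutation tests). With the length of the longest GENCODE coding transcript in place of the row length, the Lpin1 share was 86.6%, 62.8% and 95.1% in iWAT adipocytes, eWAT adipocytes and BAT. The Agpat2 share was then 86.4%, 68.3% and 83.3%, so that shares, but no call, depended on the length used.

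**Figure D3:**
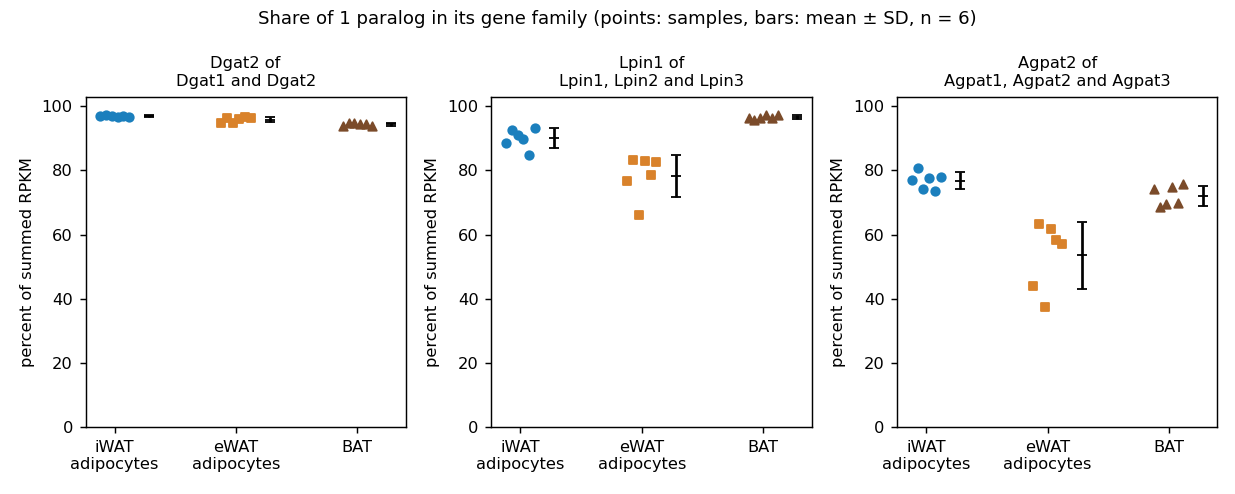
Percent of the summed RPKM of a gene family held by Dgat2, Lpin1 and Agpat2, with 1 point per sample and the mean ± SD beside them, on axes that start at 0. The Dgat2 share stays above 93% in all samples, while the Lpin1 and Agpat2 shares are lowest in eWAT adipocytes, at means of 78.3% and 53.6%.

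To see how the genes varied among samples of 1 depot, each was set against the mean log2(RPKM + 0.1) of 4 adipocyte markers (Adipoq, Plin1, Cidec and Fabp4), with 30 correlations in all. In eWAT adipocytes this marker mean was 7.84 and 8.25 in samples 3 and 1 and 9.08 to 9.57 in the others, so every r there spans this gap. Agpat2 (r = 0.999, rho = 1) and Dgat2 (r = 0.994, rho = 1) followed the markers most closely (each adjusted p = 0.0208 for r and 0.0278 for rho, exact permutation test, n = 6). Without samples 1 and 3, r was 0.989 for both. Gpam also gave a high r (0.955, rho = 0.771, adjusted p = 0.0333 and 0.193, exact permutation test), but r was 0.393 without these samples, so its relation rests on them.

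In total, 7 of the 10 genes passed the threshold in eWAT adipocytes by r and 3 by rho (Agpat2, Agpat3 and Dgat2). The share of all genes that would pass was not computed in any depot, so such counts do not set the 10 genes apart. Agpat1 (r = −0.222, rho = −0.0857, adjusted p = 0.739 and 0.951, exact permutation test) and Lpin2 (r = −0.138, rho = −0.0857, adjusted p = 0.814 and 0.951, exact permutation test) did not pass. Agpat1 and Lpin2 were also the genes that were higher in eWAT than in iWAT adipocytes. For Lpin3, r was 0.877 with all samples (rho = 0.486, adjusted p = 0.0807 and 0.427, exact permutation test) and −0.867 without samples 1 and 3.

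In iWAT adipocytes, 4 genes passed by r (Gpam, Agpat2, Lpin1 and Dgat1; r = 0.880 to 0.952) and 0 by rho, also at an unadjusted p of 0.05 (exact permutation tests). Without the 2 samples farthest from the median, samples 2 and 5, these r were 0.647 to 0.886. In BAT, where the marker mean ran only from 8.73 to 9.10, 0 genes passed by r or rho at an adjusted p in exact permutation tests, and at an unadjusted p of 0.05 only Dgat2 did, by r. Its r was 0.850 (rho = 0.771, adjusted p = 0.0858 and 0.193, exact permutation test), and 0.948 without samples 16 and 17.

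**Figure D4:**
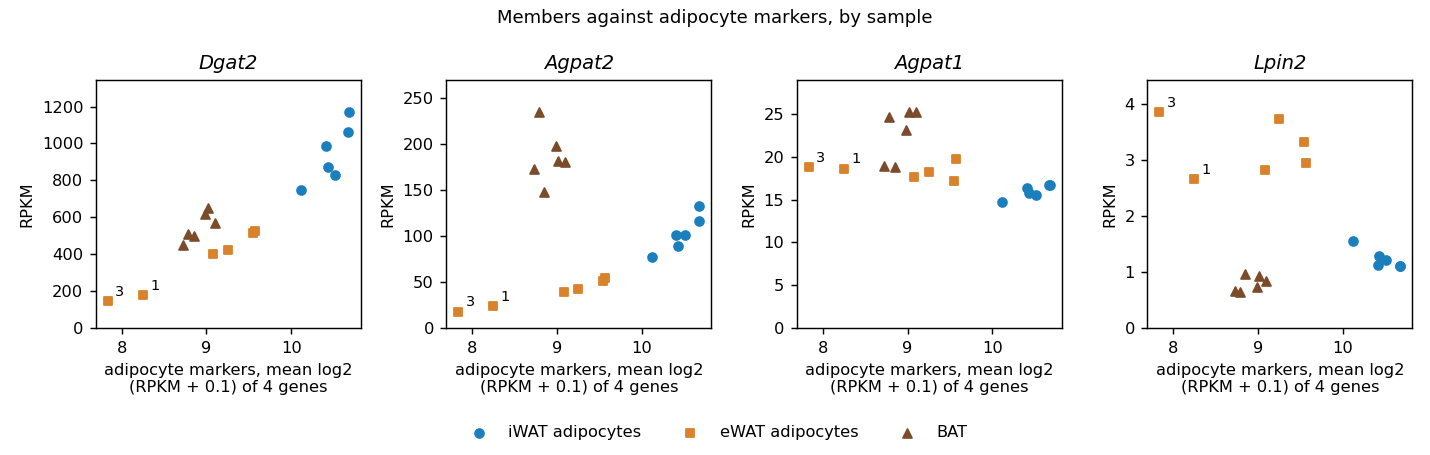
RPKM of Dgat2, Agpat2, Agpat1 and Lpin2 in each of the 18 samples against the mean log2(RPKM + 0.1) of 4 adipocyte markers, by depot, with eWAT samples 1 and 3 numbered. Dgat2 and Agpat2 climb with the markers within eWAT adipocytes (r of 0.994 and 0.999), whereas Agpat1 and Lpin2 do not, and the BAT points of Agpat2 lie far above white adipocytes of a like marker level.

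The genes whose log2(RPKM + 0.1) was most like that of a member over the 18 samples were searched among 13856 genes with an Entrez ID and a mean RPKM of at least 1. Because the samples fall into 3 depots, these correlations mostly reflect levels per depot, and they are given as a description. For Dgat2 the nearest was Plin1, the perilipin that coats the lipid droplet (r = 0.988). The ratio of Dgat2 to Plin1 RPKM was 2.66 ± 0.139 in iWAT adipocytes, 2.79 ± 0.231 in BAT and 3.11 ± 0.273 in eWAT adipocytes. It stayed between 2.53 and 3.45 in all 18 samples, where Dgat2 itself ran from 145.6 to 1170.2 RPKM. Because Plin1 was picked as the gene nearest to Dgat2, a narrow range of this ratio follows in part from that choice. The ratios of iWAT adipocytes (2.526 to 2.855) and eWAT adipocytes (2.866 to 3.452) did not overlap.

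Lpin1 was nearest to Nudt7 (r = 0.989), followed by Agpat2 and by Slc2a4, the insulin-responsive glucose transporter (r = 0.987 and 0.986). Dgat1 was nearest to Adig, a small adipocyte protein (r = 0.980), and Gpam to Pm20d1, a secreted enzyme that makes N-acyl amino acids (r = 0.984). Agpat3 was nearest to Dnaja3, a mitochondrial chaperone (r = 0.998). Lpin2 was nearest to Itga4, a leukocyte integrin subunit (r = 0.983). The nearest genes were Cib2 for Agpat2 (r = 0.992), Ppp2r1b for Mogat1 (r = 0.984), St5 for Lpin3 (r = 0.980) and Sla2 for Agpat1, whose r was the lowest of the 10 (0.922).

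The wider pathway was a list of 23 other genes. They activate fatty acids, acylate glycerol-3-phosphate, lysophosphatidate or monoacylglycerol, remove phosphate, act on lipins or lipid droplets, or branch to phospholipids. The list held genes called in either direction. Of the 20 that could be tested, 9 were higher in iWAT and 8 in eWAT adipocytes (median log2 fold change 0.17), where 34.1% and 34.5% of all genes were. Without eWAT samples 1 and 3 the counts were 9 and 7 (median 0.11), where 29.6% and 30.6% of all genes were. The other 3, Acsl6, Gpat2 and Fitm1, had at most 14 reads in any sample. Those with the largest differences were Agpat9, a glycerol-3-phosphate acyltransferase also called Gpat3 (1.46 ± 0.28, adjusted p = 0.0005), Acsl1, an acyl-CoA synthetase of fat (1.45 ± 0.28, adjusted p = 0.00045), and Agpat4, which was higher in eWAT adipocytes (−1.34 ± 0.18, adjusted p = 2.3e-05).

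Against BAT, 8 of the 20 were higher and 5 lower in iWAT adipocytes (median 0.00), where 38.1% and 37.2% of all genes were. These counts depend on the scaling and were 16 and 1 without TMM (69.4% and 15.5% of all genes). The largest differences were those of Mogat2, a monoacylglycerol acyltransferase (2.51 ± 0.24, adjusted p = 1.3e-07), Acsl5, an acyl-CoA synthetase (−1.97 ± 0.20, adjusted p = 3.1e-07), and Agpat4 (1.90 ± 0.19, adjusted p = 1.8e-07). In eWAT adipocytes 8 were higher and 7 lower than in BAT (median 0.02), also without eWAT samples 1 and 3, where 41.1% and 41.4% of all genes were with all samples. Without TMM the counts were 13 and 6 (64.6% and 20.3% of all genes). The largest differences were those of Agpat4 (3.28 ± 0.14, adjusted p = 1.3e-11), Chpt1, a cholinephosphotransferase (−2.22 ± 0.27, adjusted p = 1.7e-06), and Mogat2 (1.90 ± 0.45, adjusted p = 0.0011). Of the glycerol-3-phosphate acyltransferases with more than a few reads, Agpat6, also called Gpat4, was at 18.8 ± 1.96 RPKM in iWAT adipocytes and 25.2 ± 4.78 RPKM in BAT. Agpat9 was at 15.2 ± 2.58 and 3.62 ± 1.11 RPKM, and Gpam at 11.1 ± 1.52 and 38.2 ± 9.28 RPKM.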

How the data were processed

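RNA was sequenced from iWAT adipocytes, eWAT adipocytes and whole BAT (6 samples each, grouped by their labels). The authors used RNA with an RIN above 8 and the NEBNext Ultra kit, and the submitters' processing notes name cutadapt 1.16, HISAT2 2.1.0 and the mm9 build. The program that counted the reads, its annotation and its use of strand are not given in the sources used here. The deposited files give read counts per transcript row and the RPKM that the authors computed from them. In each sample these RPKM are the count per length and per 1 total, which differs from the reads counted on rows.

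Where a symbol had several rows, the one highest in mean RPKM over all samples was taken. Counts were tested with edgeR 4.0.16 (glmQLFit and glmQLFTest, TMM, two-sided) in R 4.3.3, on the 12 samples of each comparison and on genes whose counts averaged 10 or more. Benjamini-Hochberg adjustment covered all tested genes, with a threshold of 0.05, and SE were derived from the F statistic. Shares and correlations were tested by exact permutation, two-sided. Python 3.11.15, scipy 1.17.1, limma 3.58.1 and DESeq2 1.42.0 were also used. The counts of every pair of samples of a depot differed beyond sampling noise (chi-square at least 15.7 per degree of freedom). The labels do not say whether the samples of a depot are separate animals, so p-values measure the spread between these samples. Duplication by PCR is not covered by the read counts.

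Besides the 10 members, the genes named are marker genes, the 3 genes of the pathway list that changed most in each comparison among those past the threshold, and the genes nearest to a member. Overlapping genes, and the Agpat6 and Agpat9 levels set beside Gpam, were named after their values were seen. The members and lists were chosen with earlier results of these data known. Alternatives were other scalings, filters, tools and subsets of samples. Leaving out eWAT samples 1 and 3, GENCODE lengths and the alternatives for the pathway list were chosen after seeing the data. RC samples were not analysed here.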

Additional observations from a re-analysis of the deposited data

How the results depend on the processing

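The number of the 10 genes that differed stayed within 1.5 times its value under every alternative run, which were DESeq2, limma on log2(RPKM + 0.1), no TMM scaling, no filter beyond 1 read, summed rows, a joint fit of all 18 samples, a lane term (white depots), samples left out and a replicate block. It was 8 to 10 for iWAT against eWAT adipocytes, 7 to 9 for iWAT adipocytes against BAT and 7 to 10 for eWAT adipocytes against BAT. Of all genes, 11763 to 14431, 12555 to 19467 and 15149 to 22026 differed in these comparisons. The highest of these counts came with no filter, where 39134, 39069 and 39705 genes were tested. All these counts cover both directions and do not show a change of split. In iWAT adipocytes against BAT, 1 of the 10 genes was higher and 6 lower, but 4 and 5 without TMM scaling and with limma. Scaling moved single genes most. Without TMM scaling the sign changed for Dgat1 in iWAT adipocytes against BAT (log2 fold change 0.14) and for Agpat1 and Mogat1 in eWAT adipocytes against BAT (0.0149 and 0.40). Limma used RPKM, with their own totals in place of the counted reads and no TMM scaling. With limma, Dgat1 in iWAT adipocytes against BAT was −0.11 (adjusted p = 0.42) and Dgat2 was 0.78 (adjusted p = 7.2e-05). Gpam then passed in iWAT over eWAT adipocytes (0.60, adjusted p = 0.048). With no filter Agpat1 did not pass between the white depots (−0.17, adjusted p = 0.089), and without scaling neither did Agpat3 (0.17, adjusted p = 0.053). Leaving out 1 sample at a time gave −0.0426 to 0.0895 for Lpin2 in iWAT adipocytes against BAT, 0.36 to 0.64 for Gpam between the white depots and −0.66 to −0.34 for Mogat1 in eWAT adipocytes against BAT. Lpin2 changed sign without iWAT sample 3 or 5 or BAT sample 1 or 18, Gpam passed without eWAT sample 2 (0.63, adjusted p = 0.042) or 5 (0.64, adjusted p = 0.039), and Mogat1 passed without eWAT sample 4 (−0.66, adjusted p = 0.046). No other call or sign among the 10 genes changed when 1 sample was left out.

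Same-numbered samples did not deviate together: r of their deviations was over 0.1 in 1 of 6 pairs of white depots and in 0 of 4 pairs with BAT each, and 1, 1 and 2 samples correlated best with their own number. With the number as a replicate block, 9, 7 and 9 of the 10 genes still differed, while 12836, 12555 and 15149 of all genes did. Lpin2 in iWAT adipocytes against BAT changed sign under the block (−0.0728, adjusted p = 0.57).

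The 9 share comparisons kept direction and call with summed rows, read counts, GENCODE lengths and 1 sample left out at a time, as did the 6 with eWAT run without its samples 1 and 3 and the 3 run with the replicate block. With a pseudocount of 1 the correlation of Mogat1 with the markers in BAT went from 0.0172 to −0.00900 and that of Gpam in iWAT adipocytes no longer passed (adjusted p = 0.053, exact permutation test). Without the 2 samples farthest from the median, r changed sign for Agpat1 (0.323), Lpin2 (0.0943) and Lpin3 (−0.867) in eWAT adipocytes and for Mogat1 in BAT (−0.781). The cause of these changes was not tested. Depth limits Mogat1 and Lpin3 most, with as few as 43 and 37 reads in a sample.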
